A study of Mus musculus with 10 samples.

Results

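The apical surface of a proximal tubule cell is folded into a brush border of microvilli, in which an actin core carries a membrane crowded with peptidases and transporters. The 9 genes described here encode parts of it: villin (Vil1) of the actin core, the scaffold protein PDZK1 (Pdzk1), and the surface enzymes meprin alpha and beta (Mep1a, Mep1b), aminopeptidase N (Anpep), glutamyl aminopeptidase (Enpep), dipeptidyl peptidase 4 (Dpp4), neprilysin (Mme) and gamma-glutamyltransferase 1 (Ggt1). They were chosen by name, with earlier results of these data known. All probe sets that the platform annotation assigns to exactly 1 of these symbols were taken. This gave 13 of the 45037 probe sets that are not array controls. These probe sets measure 8 of the 9 genes, among 18193 genes in all; no probe set carries the symbol Ggt1 in that annotation, so Ggt1 was not analysed here. Each gene was represented by its brightest probe set over all arrays, and the other probe sets are given beside it.

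The RNA came from whole urogenital systems of mouse embryos at embryonic day 15.5, which hold the forming kidneys together with gonads, reproductive ducts, adrenal glands and bladder. In 5 pools the embryos had the genotype Wnt9bcneo/cneo and are called homozygous. In the other 5, called control, the genotype label reads Wnt9bcneo/+, whereas the titles say WT, so the controls may carry 1 cneo allele. Wnt9b is a Wnt ligand secreted by the ureteric epithelium that induces nephrons, and the labels do not describe the molecular lesion of the cneo allele. A pool held 1 to 2 urogenital systems, and 1 Affymetrix array was hybridized per pool with cRNA from 1 ug of total RNA. Proximal tubules begin to mature at about this stage, and most of the 9 genes are also active in the lining of the small intestine, so the measurement asks how far this apical program was present in the 2 genotypes.

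Some properties of the arrays bear on what follows. On the log2 scale Wnt9b ran from 5.58 to 7.65 in the homozygous group (6.83 ± 0.82, SD, n = 5) and from 6.92 to 7.16 in the controls (7.05 ± 0.11, SD, n = 5), so its probe set does not check the labels. Homozygous pools 3, 4 and 5 had Xist levels of 13.75 or more (log2), against 6.07 or less in the other 7 pools. Genes of the Y chromosome had a mean of 4.00 (log2) in those 3 pools and of 9.75 to 10.31 in the other 7. By these genes homozygous pools 3, 4 and 5 were female and all control pools male, so sex and genotype were partly confounded. The actin signal at the 3' end over that in mid-transcript, a ratio that rises when RNA is degraded, came to 97.7 for homozygous pool 5 and 94.8 for control pool 1, and to between 9.87 and 33.1 elsewhere. The same ratio for Gapdh was highest in control pool 1, at 68.7, but in homozygous pool 5 it was 43.4, within the range of 36.0 to 50.5 of the other homozygous pools, so only the actin ratio sets that pool apart. All arrays share a trimmed mean intensity of 500, and precision is limited by how few arrays there are. The share of probe sets at or under the floor of 16 was 19.9% to 21.1% on homozygous and 22.2% to 23.0% on control arrays; no chosen probe set of the 8 genes reached that floor on any array.

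All 8 measured genes had a lower mean in homozygous pools, and 5 of them fell: Vil1, Mep1b, Pdzk1, Mep1a and Dpp4. The threshold was an adjusted p under 0.05 in limma over all genes, which 0.429% of genes passed in this direction. Anpep, Enpep and Mme did not pass. The log2 difference, homozygous minus control, ran from -1.93 for Vil1 to -0.54 for Mme with a median of -1.23, while the median over all genes was 0. Means were at least 2-fold lower for 6 of the 8 genes, against 1.70% of all genes. In 6 of the 8 every homozygous pool lay below every control pool, as for 2.10% of all genes; Anpep and Mme overlapped. In tissue of mixed cell types, fewer proximal tubule cells and less of these RNAs per cell cannot be told apart.

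**Figure D1:**
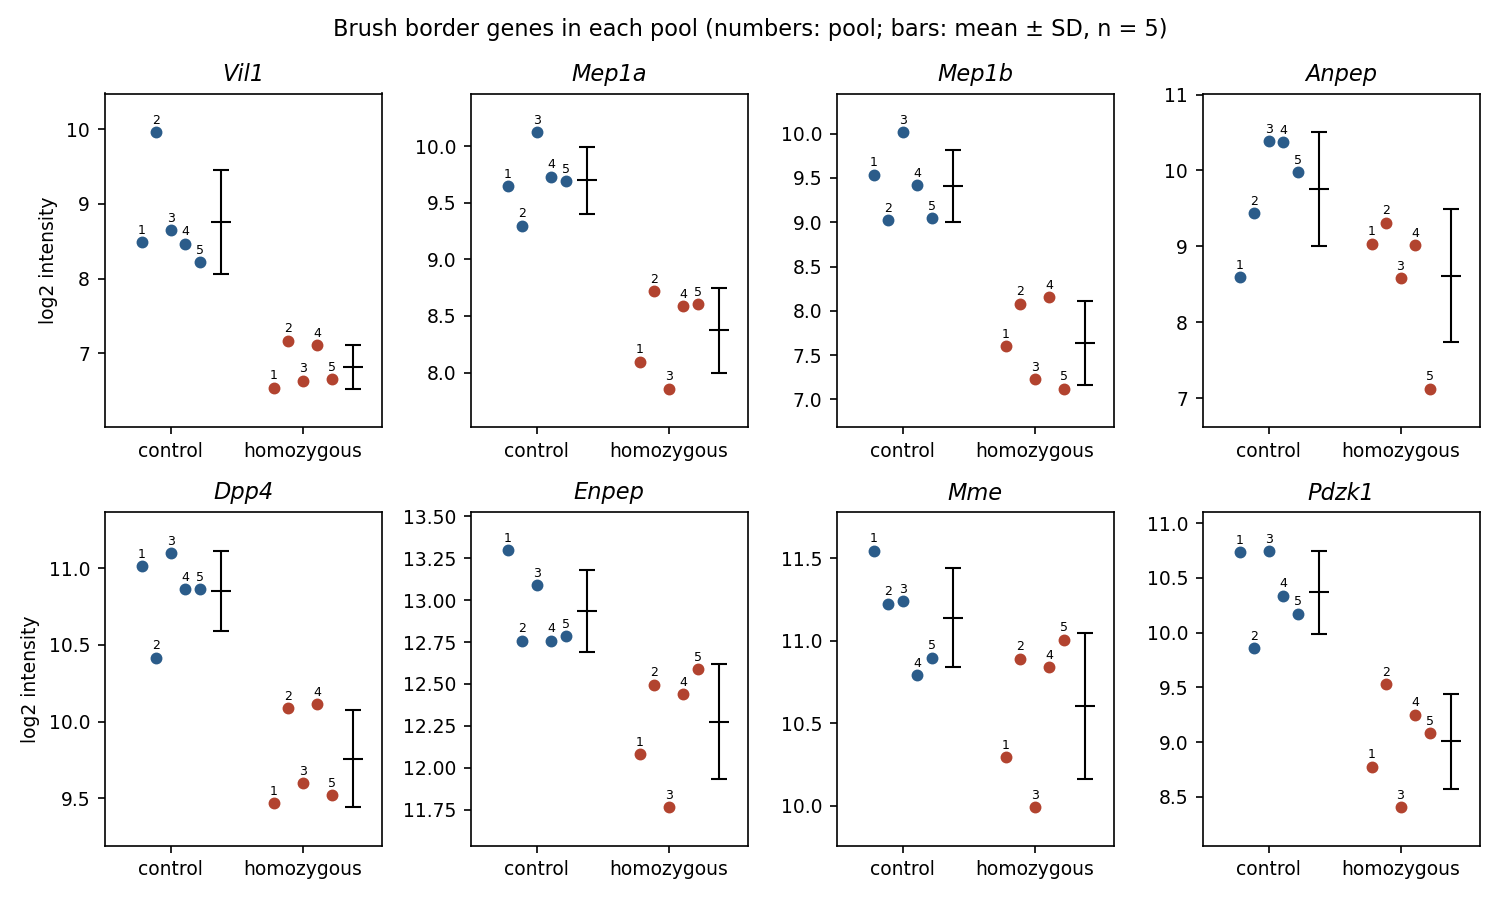
Log2 intensity of the 8 measured genes in each pool, from the brightest probe set of each gene; points are pools with their numbers, and the bars beside them give the mean ± SD of 5 pools. The genotypes lie apart in all panels but Anpep and Mme, and control pool 2 stands above the other controls for Vil1.

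The 5 calls lay close to the threshold, with adjusted p from 0.0364 to 0.0473, and single pools decided them. Without homozygous pool 1, 3 or 5, or without control pool 1, 3, 4 or 5, 0 of the 8 genes passed in limma. In each of these 7 fits 6 or 7 of the 8 had an unadjusted p under 0.05. So had 2226 to 3191 of all 18193 genes. Without homozygous pool 4, Mep1b and Dpp4 passed; without homozygous pool 2 or control pool 2, the same 5 genes passed. The median log2 difference of the 8 genes ran between -1.36 and -1.12 in these fits. All Xist-high pools were homozygous. With those 3 left out the median was -1.14, and 0 of the 8 passed in limma. At an unadjusted p under 0.05 were 6 of the 8, beside 1641 of all 18193 genes. With both arrays of high actin ratio left out the median was -1.17, again with 0 past the threshold. At an unadjusted p under 0.05 were 7 of the 8, beside 3533 of all genes.

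Vil1 encodes the actin-bundling and severing protein of the microvillus core (GRCm38.p6, chromosome 1, 74409384 to 74435560). Its intensity in homozygous pools 1 to 5 was 93.3, 144, 99.3, 138 and 101. In control pools 1 to 5 it was 358, 998, 401, 354 and 298. Every control pool was thus at least as high as 298 while no homozygous pool passed 144, and control pool 2 stood far above the other controls. On the log2 scale this was 6.82 ± 0.29 (SD, n = 5) against 8.76 ± 0.69 (SD, n = 5), a difference of -1.93 ± 0.33 (SE; limma adjusted p = 0.0416), or 3.82-fold lower.

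The high Vil1 value of control pool 2 came with some transcripts of intestinal lining. Tff3 and Spink4, secreted products of goblet cells, had log2 intensities of 13.14 and 12.98 in that pool, against at most 4.70 and 6.03 in the other 9. The intestinal mucin gene Muc2 was at 10.38 against at most 6.19, and Cdh17, the intestinal cadherin, at 9.53 against at most 5.11. The gut transcription factor genes Isx and Cdx1 were at 8.12 and 7.03, while Cdx1 was at the floor in all other pools. The mean of the 12 measured gut genes was 7.52 in control pool 2 and 4.39 to 5.00 in the rest; the rest of the list was not high there. Lactase (Lct) was at 4.99 and intestinal alkaline phosphatase (Alpi) at 5.26, both enterocyte brush border genes, and Krt20 was at 5.76; other pools reached 6.28, 5.90 and 6.44. Cdx2 was at 4.99 against at most 4.66, Fabp2 was at the floor in control pool 2, and Apoa4 was at the floor on every array. Without control pool 2, Vil1 differed by -1.63 ± 0.18 (SE; limma adjusted p = 0.0147), a smaller difference with a smaller error.

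**Figure D2:**
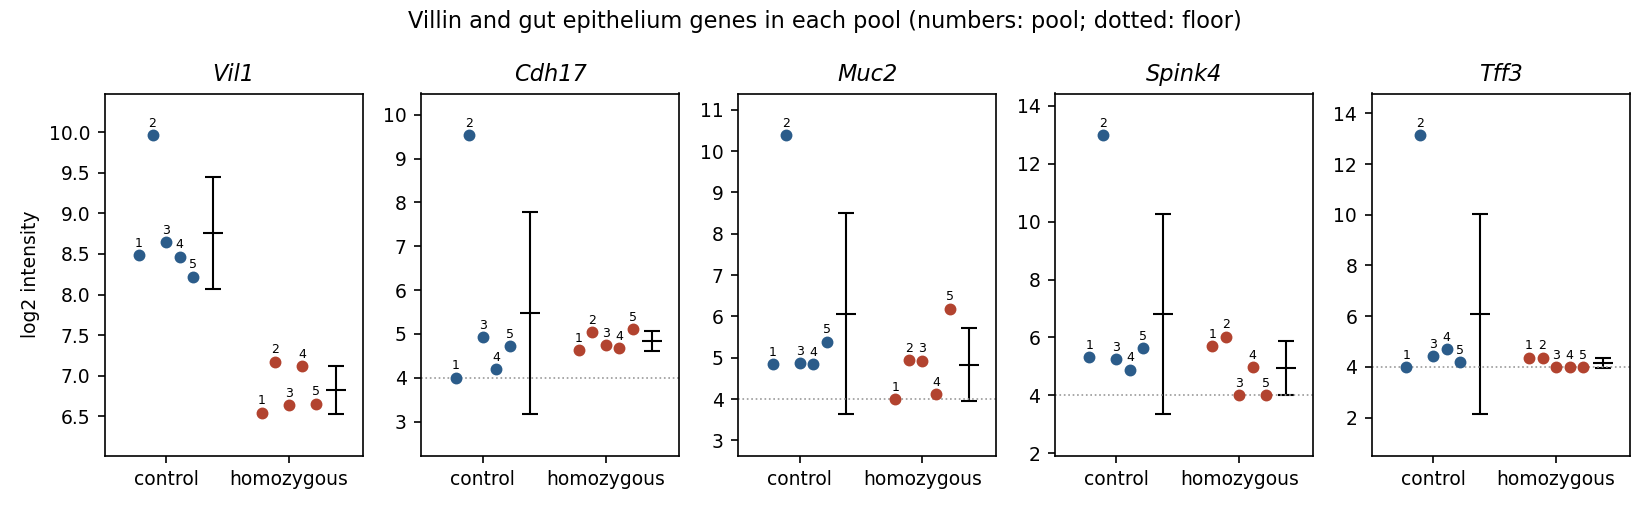
Log2 intensity of Vil1 and of 4 genes of the intestinal lining in each pool; points are pools with their numbers, bars give the mean ± SD of 5 pools and the dotted line is the floor. Control pool 2 is high in all 5 panels, and the other control pools exceed the homozygous pools for Vil1 alone.

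For the other members control pool 2 was not the highest control. It had the lowest control value of Mep1a, Mep1b, Dpp4, Pdzk1 and Enpep. This was narrow for Enpep (6924 against 6927 in control pool 4) and for Mep1b (522 against 529 in control pool 5). For Anpep it was above control pool 1 alone, and for Mme (2394) above control pools 4 and 5 (1775 and 1908). Vil1 was the one member with its control maximum in the pool that held gut transcripts.

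Pdzk1 encodes a protein with PDZ domains that holds transporters in the apical membrane (chromosome 3, 96829456 to 96870926). Its intensity was 439, 740.1, 339, 609 and 543 in homozygous pools 1 to 5. It was 1705, 928, 1716, 1293 and 1155 in control pools 1 to 5. The groups did not overlap, and homozygous pool 2 came closest to the controls. The homozygous mean of 9.01 ± 0.43 (log2, SD, n = 5) lay below the control mean of 10.37 ± 0.38 (SD, n = 5), and the difference was -1.36 ± 0.25 (SE; limma adjusted p = 0.0473). Pdzk1 did not pass with quantile normalization in place of the deposited scaling, with a floor of 32, or with genes taken as the mean of their probe sets. Its limma adjusted p was 0.0550, 0.0534 and 0.0516 in these fits. The difference was -1.30 with quantile normalization. It stayed at -1.36 with the floor of 32 and with the mean, as Pdzk1 has 1 probe set and lay above that floor.

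The meprins are zinc metalloproteases of the brush border that act as homo- or heteromers of alpha and beta subunits. Mep1b (chromosome 18, 21072344 to 21100199) had intensities of 194, 271, 149.8, 285 and 139 in homozygous pools 1 to 5. Control pools 1 to 5 had 743, 522, 1036, 685 and 529. No pool of one genotype reached the other, and the log2 difference of -1.77 ± 0.27 (SE; limma adjusted p = 0.0364) came from means of 7.64 ± 0.47 (SD, n = 5) and 9.41 ± 0.41 (SD, n = 5). Mep1a (chromosome 17, 43474324 to 43504143) was at 274, 422, 232, 385 and 389 in homozygous and at 803, 629, 1116, 849 and 825 in control pools. It fell by 1.32 on the log2 scale, with an SE of 0.21 and a limma adjusted p of 0.0364.

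Both meprin genes were highest in control pool 3 and low in homozygous pool 3. A second, dimmer probe set of Mep1a gave another picture: it ran from 31.4 to 148 over the 10 arrays, its genotypes overlapped, and it differed by 0.35 ± 0.41 (SE; limma adjusted p = 0.763 over all probe sets). Its name ends in _s_at, which marks probes that match more than one transcript, and whether this bears on its values was not tested. With the mean of both probe sets, Mep1a differed by -0.49 and did not pass.

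Dpp4, a serine protease that removes dipeptides from the ends of peptides (chromosome 2, 62330073 to 62412315), was read by 4 probe sets. The brightest had intensities of 709, 1088, 775, 1107 and 735 in homozygous pools 1 to 5. It had 2069, 1366, 2194, 1865 and 1860.4 in control pools 1 to 5. All control pools exceeded all homozygous pools, with a difference of -1.09 ± 0.18 (SE; limma adjusted p = 0.0374) between means of 9.76 ± 0.32 (SD, n = 5) and 10.85 ± 0.26 (SD, n = 5). The other 3 probe sets were lower as well, by -1.66, -1.03 and -0.82. The name of the one at -1.03 ends in _x_at, which marks probes that may match other sequences too.

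Each probe set was also tested by itself over all 45037, where 0.120% passed in this direction. Of the 13 probe sets 2 passed, the single one of Mep1b (limma adjusted p = 0.0476) and a dim one of Dpp4 (limma adjusted p = 0.0192). That Dpp4 probe set read 84.4, 132, 84.1, 150.2 and 139.7 in homozygous pools and 369, 326, 436, 367 and 326 in control pools, a difference of -1.66 ± 0.19 (SE). The 4 probe sets of Dpp4 thus shared the direction, and 2 of them separated the genotypes. Of all 13 probe sets, 11 were lower and 7 had every homozygous pool below every control pool, against 1.51% of probe sets on the array.

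**Figure D3:**
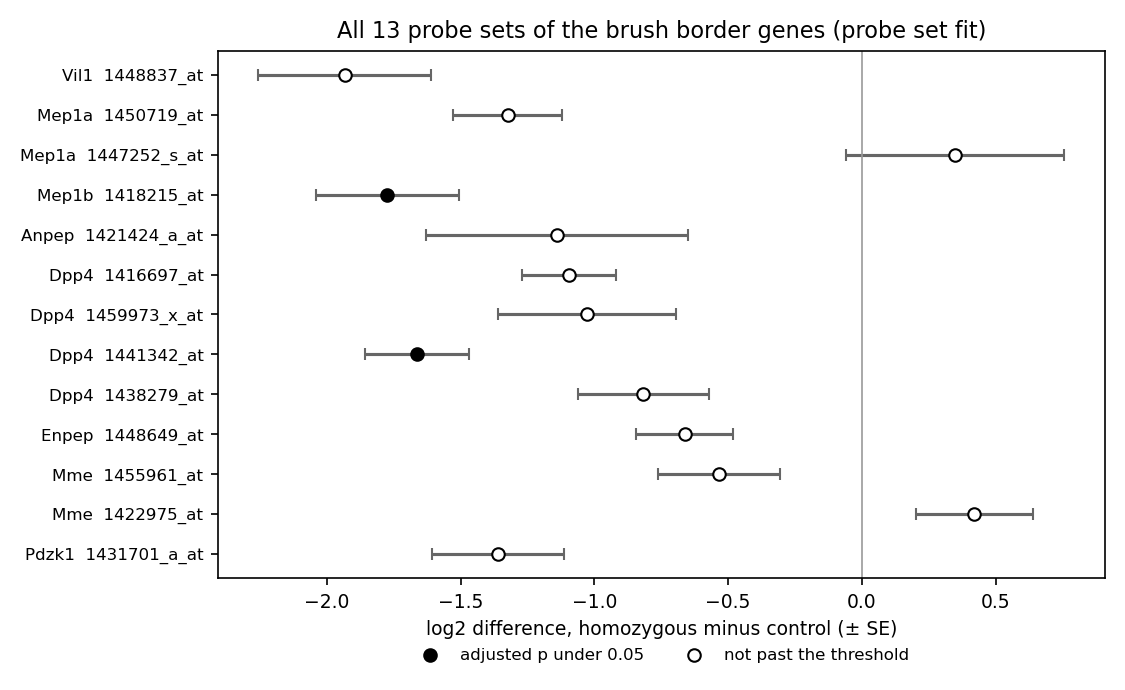
Log2 difference, homozygous minus control, of the 13 probe sets with its standard error, from the fit over all probe sets; filled points passed an adjusted p of 0.05. The second probe sets of Mep1a and Mme lie to the right of 0 and the other 11 to the left, and the 2 filled points belong to Mep1b and Dpp4.

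The aminopeptidases Anpep and Enpep cut single residues from peptide ends, Enpep acting on acidic residues such as the first of angiotensin II. Anpep (chromosome 7, 79821803 to 79848210) had intensities of 525, 635, 382, 517 and 139.6 in homozygous pools 1 to 5. It had 387, 692, 1338, 1322 and 1009.7 in control pools 1 to 5. The lowest pool of each genotype, homozygous pool 5 and control pool 1, was the array with the high actin ratio, and there the groups overlapped. The difference of -1.14 ± 0.49 (SE) did not pass (limma adjusted p = 0.301).

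Without both arrays Anpep differed by -1.06 ± 0.25 (SE; limma adjusted p = 0.119), and its homozygous values of 382 to 635 lay below its control values of 692 to 1338 (n = 4 each). Whether RNA integrity set the 2 low values was not tested. Without the 3 Xist-high homozygous pools Anpep differed by -0.58, and with the Xist level as a covariate by -0.47. In limma 0 of the 8 members passed in either fit, with 6 at an unadjusted p under 0.05 in each. Of all 18193 genes, 1641 and 1588 had such a p. Vil1 differed by -1.90 in both, with an SE of 0.51 without those pools and 0.47 with the covariate (limma adjusted p = 0.379 and 0.364). Mep1b differed by -1.57 ± 0.31 (SE) and -1.56 ± 0.38 (SE; limma adjusted p = 0.252 and 0.359).

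Enpep (chromosome 3, 129269177 to 129332749) was at 4331, 5774, 3479.7, 5558 and 6166 in homozygous pools. It was at 10059, 6924, 8715, 6927 and 7051 in control pools. The groups did not overlap, yet the difference of -0.66 ± 0.18 (SE) did not pass over all genes (limma adjusted p = 0.115). Among the alternatives only array weights brought it past the threshold (limma adjusted p = 0.0479), with adjusted p up to 0.541 in the others.

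Mme encodes neprilysin, a zinc endopeptidase of the proximal tubule and podocyte surface (chromosome 3, 63295211 to 63383713). It was at 1256, 1902, 1019, 1835 and 2060.0 in homozygous pools. It was at 2995, 2394, 2423, 1775 and 1908 in control pools. Homozygous pools 2, 4 and 5 lay within the control range, and the difference was -0.54 ± 0.23 (SE; limma adjusted p = 0.297). Its second probe set, at 40.9 or below on every array, differed by 0.42 ± 0.22 (SE; limma adjusted p = 0.504 over all probe sets), and with the mean of both Mme differed by -0.057.

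How closely the members varied together within a genotype depended on 3 pools. Deviations from the genotype mean over the 10 arrays gave a Pearson r above 0.5 for 13 of the 28 gene pairs and below 0 for 5, with a median of 0.43. Enpep and Mme had the highest r, 0.94, followed by 0.89 for Mep1a and Pdzk1 and 0.87 for Enpep and Pdzk1. Vil1 had an r of 0.0049 with the mean of the other members and Anpep one of 0.084, against 0.43 for Mme and 0.52 to 0.87 for the remaining 5. The value of Vil1 rests on control pool 2, which held gut transcripts: without that pool it was 0.92 (9 arrays). That of Anpep rests on the 2 arrays of high actin ratio, without which it was 0.57 (8 arrays). With all 3 pools left out, each member had an r of 0.79 or more with the mean of the others, and the 28 pairs had a median of 0.90 with all 28 above 0.5 (7 arrays). These pools were left out after their values were seen. Points of an array share its RNA pool and its scaling, so these values describe the pools only.

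Of 9068 brighter genes outside the set, Sall2, a zinc finger gene, followed the members' mean most closely within genotypes (r = 0.95, 10 arrays). Tkfc, a triose kinase gene (0.93), Elf5, an ETS factor gene of the collecting duct (0.93), Pdxk, the pyridoxal kinase gene (0.92), and Chd4, a chromatin remodeller gene (0.92), came next. Their own log2 differences were -0.39, -0.36, -1.27, -0.32 and -0.43, and none passed in limma (adjusted p from 0.0633 to 0.387). They are the extremes of a long ranking and are given as a description.

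Other genes of the microvillus and brush border were read from a list of 32 symbols, also chosen with earlier results of these data known. Of the 32 symbols 28 were measured. Of these 2 fell, a share to be set beside 0.429% over all genes, 26 did not pass and none rose; the median log2 difference was -0.62. In 10 of the 28 every homozygous pool lay below every control pool, against 2.10% of all genes. In limma 0 of the 28 passed without the Xist-high pools or without the pair of arrays with high actin ratio. None passed either without homozygous pool 1, 3 or 5, or without control pool 1, 3, 4 or 5. In these 9 fits 11 to 17 of the 28 had an unadjusted p under 0.05. The same held for 1641 to 3533 of all 18193 genes.

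The 2 that fell belong to the microvillus. Clrn3, a tetraspan membrane protein gene of the clarin family, fell by 1.55 on the log2 scale (SE 0.20; limma adjusted p = 0.0222), and Pls1, which encodes an actin bundler that works beside villin, fell by 1.01 (SE 0.16; limma adjusted p = 0.0364). Of the 13 microvillus genes 12 had lower means, with a median of -0.91. Anks4b (-1.14), Ush1c (-1.03) and Cdhr2 (-1.02), parts of the adhesion complex that links microvillus tips, did not pass. Ezrin (Ezr, -0.77) and Myo6 (-0.91) did not pass either, although all 5 genes separated the genotypes. Cdhr5, of the same tip complex, differed by -0.58, did not pass, and overlapped between the genotypes. Myo7b, the motor of the same tip complex, differed by -1.17 with values at the floor on 3 arrays, and Eps8 by 0.072.

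The 4 measured partners of apical scaffolds had a median of -0.45 and none passed; Slc9a3, the apical sodium-proton exchanger, differed by -0.94, and the scaffold gene Slc9a3r1 by -0.38. The 11 further surface enzymes and partners had a median of -0.35, with means lower in 6, higher in 4 and at the floor on every array in Treh. Cltrn, the amino acid transporter partner also called collectrin, differed by -1.43 and Pdzd3 by -1.26, and neither gene overlapped between the genotypes. Dpep1 (1.12), Nt5e (0.98) and Enpp3 (0.87) had higher homozygous means, and none of these 5 genes passed (limma adjusted p from 0.0753 to 0.178). The difference between the groups of genes was not tested.

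**Figure D4:**
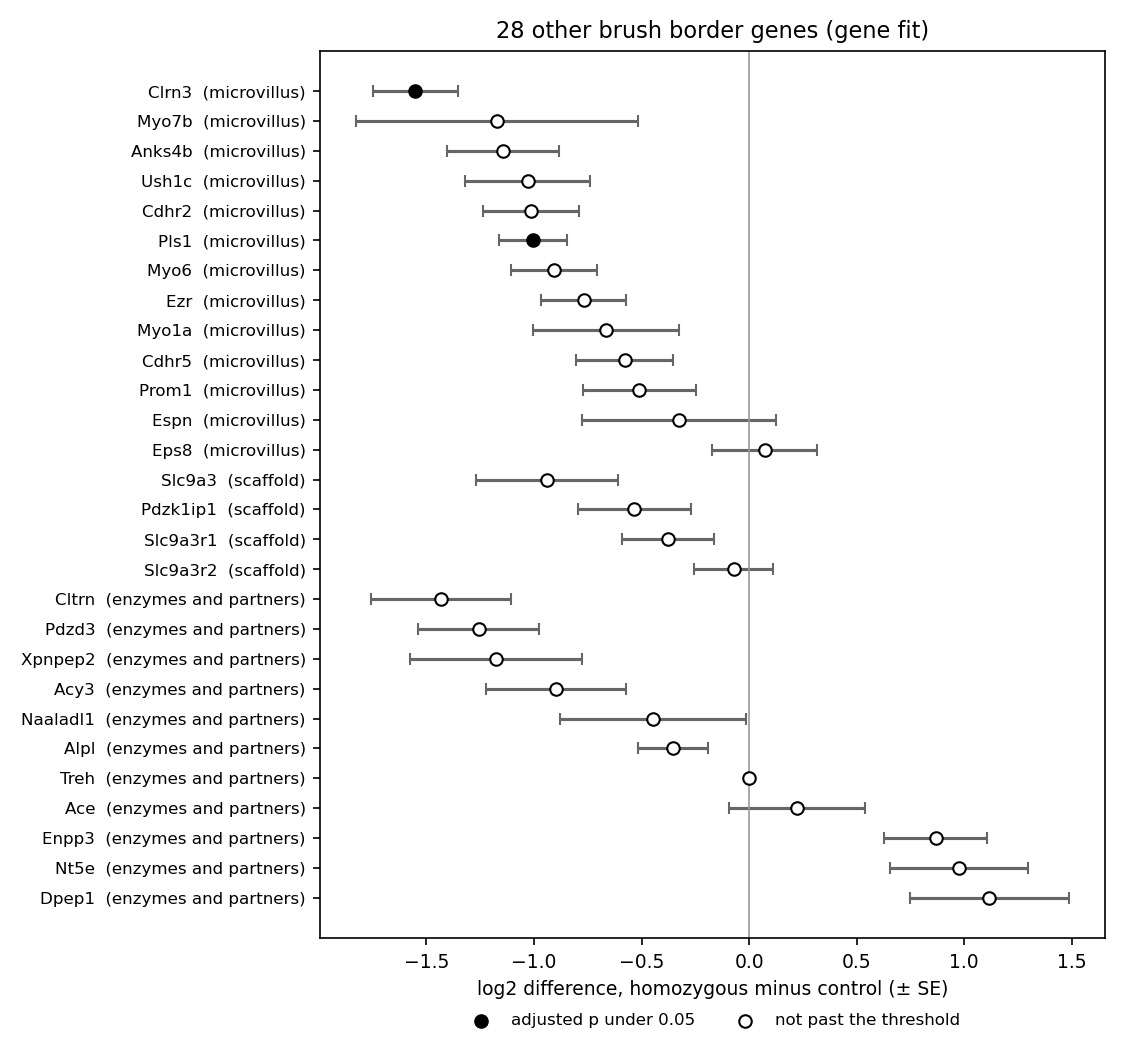
Log2 difference, homozygous minus control, with its standard error for 28 further brush border genes in 3 groups; filled points passed an adjusted p of 0.05 over all genes. Clrn3 and Pls1 are the filled points, and Dpep1, Nt5e and Enpp3 lie farthest to the right.

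Marker lists of other tissues were read in the same way, and of them only the sympathetic list held a gene past the threshold. Of 9 liver genes none passed, but their mean was 10.29, 8.88 and 10.22 in homozygous pools 1 and 3 and control pool 4 and 7.25 or below in the other pools. Homozygous pools 1 and 3 also had low member means, 8.99 and 8.76, beside 8.96 in homozygous pool 5 and 9.54 and 9.44 in homozygous pools 2 and 4; control pool 4 was at 10.34, within the control range of 10.21 to 10.67. Without these 3 pools the median difference of the members was -1.07 and 0 passed in limma, with 6 at an unadjusted p under 0.05. Such a p was found for 1593 of all 18193 genes. The part of liver RNA in the result was not tested.

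Of the 10 genes of sympathetic neurons and chromaffin cells, Npy rose, as 0.539% of all genes did, and the median was 2.93. The 8 adrenal cortex genes had a median of 2.02 and the 9 testis and ovary genes one of 0.43, with none past the threshold in either. In 4 kidney lists no gene passed. The medians were -1.13 for 10 loop and distal tubule genes, -0.77 for 10 nephron progenitor genes, -0.63 for 11 ureteric genes and -0.53 for 7 podocyte genes, beside -1.23 for the brush border members. Kcnj1 of the loop list came closest to the threshold, at -1.29 (limma adjusted p = 0.0535). Every homozygous pool lay below every control pool for 3 loop, 2 ureteric, 1 podocyte and 0 progenitor genes of these lists, against 2.10% of all genes. Lists of 10 stroma and 7 endothelium genes had medians of 0.065 and -0.081, and the 12 gut genes one of -0.13, none with a gene past the threshold. The part of a smaller share of kidney tissue in the result was not tested.

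**Figure D5:**
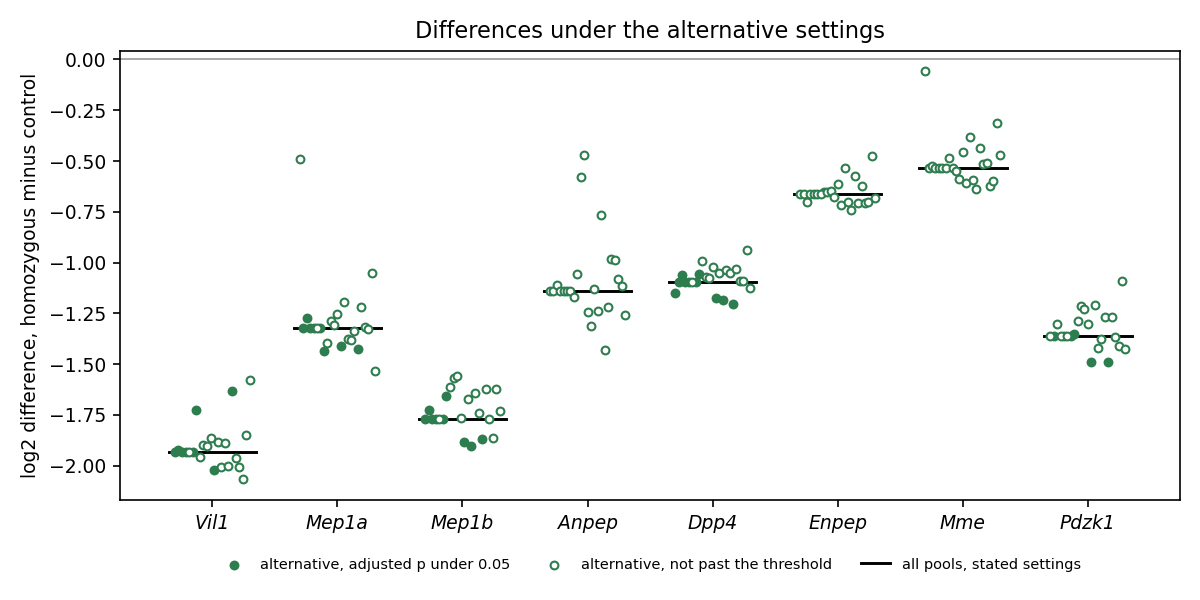
Log2 difference of each member under 22 or 23 alternative settings (points, filled where the adjusted p was under 0.05) and over all pools with the stated settings (black line). All points lie below 0; the ones farthest from their line belong to Mep1a, Anpep and Mme.

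Promoter windows are shown for members that fell. RefSeq windows of 300 bases (GRCm38.p6, 250 before to 50 from the start) were taken for 8 of the 9 members, 14 windows in all. Mep1b, which also fell, was left out of the search and is not shown. The 4 windows below belong to Vil1, Pdzk1, Mep1a and Dpp4. Searched on both strands were sites named for the tubule factors HNF1 (the short site GTTAAT, and a long site of GTTAAT and its reverse complement around 1 free base) and HNF4 (CAAAGTCCA and CAAAGGTCA), and TATAAA; the short HNF1 site lies within the long one. Vil1 lies at chr1:74409134-74409433 on the plus strand, Pdzk1 at chr3:96829815-96830114 on the plus strand, Mep1a at chr17:43502724-43503023 on the minus strand and Dpp4 at chr2:62412182-62412481 on the minus strand. Each is printed 5′ to 3′ in lower case with matches in capitals.
Vil1: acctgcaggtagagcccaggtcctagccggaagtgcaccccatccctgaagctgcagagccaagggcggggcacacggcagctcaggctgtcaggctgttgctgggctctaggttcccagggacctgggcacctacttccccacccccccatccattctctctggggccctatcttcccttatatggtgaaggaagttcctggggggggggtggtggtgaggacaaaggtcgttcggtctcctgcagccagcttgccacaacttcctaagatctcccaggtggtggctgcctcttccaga
Pdzk1: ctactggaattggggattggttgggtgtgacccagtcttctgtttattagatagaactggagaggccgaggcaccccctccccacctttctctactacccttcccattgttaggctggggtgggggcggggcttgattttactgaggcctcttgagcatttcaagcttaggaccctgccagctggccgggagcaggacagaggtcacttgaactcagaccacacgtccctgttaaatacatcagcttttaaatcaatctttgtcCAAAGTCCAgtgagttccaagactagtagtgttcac
Mep1a: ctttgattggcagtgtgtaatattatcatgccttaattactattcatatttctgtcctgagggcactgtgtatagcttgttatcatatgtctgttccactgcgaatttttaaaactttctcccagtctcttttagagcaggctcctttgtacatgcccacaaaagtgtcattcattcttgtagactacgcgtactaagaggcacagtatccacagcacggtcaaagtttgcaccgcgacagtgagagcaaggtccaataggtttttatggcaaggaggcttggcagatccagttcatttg
Dpp4: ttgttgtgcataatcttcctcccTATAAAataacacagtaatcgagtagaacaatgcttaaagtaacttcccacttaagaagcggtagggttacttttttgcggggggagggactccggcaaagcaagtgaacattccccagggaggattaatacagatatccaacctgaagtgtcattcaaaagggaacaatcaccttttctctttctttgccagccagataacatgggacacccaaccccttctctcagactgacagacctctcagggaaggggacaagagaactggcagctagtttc

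The capitals in the Pdzk1 window mark CAAAGTCCA, at bases 14 to 22 counted from the first transcribed base as 0, a word held by 0.475% of the 32851 windows of the table. Those in the Dpp4 window mark TATAAA at bases -227 to -222, held by 13.6% of all windows. Enpep had 2 matches to TATAAA and a Ggt1 window had 1, all on the opposite strand. A second Pdzk1 window, at chr3:96831921-96832220 and not shown, was searched as well and held no match. Neither HNF1 form (7.1% of all windows for the short, 0.00913% for the long one) nor CAAAGGTCA (0.478%) was found in a searched member window. A match is a run of letters in the window, and no measurement of binding was made.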

How the data were processed

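Values were deposited by the authors as 1 linear intensity per probe set and array, with a trimmed mean of 500; how probe sets were summarized, and with which software, is not given in the sources used here. The series design text describes another tissue and stage, so groups follow the sample labels. Intensities under 16 were set to 16 and taken to log2, so a fold near the floor is understated. Gene names came from the platform's annotation (34945 with 1 symbol, 932 with several, 9160 without). The two-sided test was limma 3.58.1 under R 4.3.3 (lmFit, eBayes with an intensity trend), 5 against 5 arrays, with Benjamini-Hochberg adjustment over all 18193 genes or all 45037 probe sets. Tested on simulated data for this comparison over 18193 genes, the fit recovered 44% of the genes lowered by 1 (log2) and 72% of those lowered by 2, and 12 of 128 calls were false. Nothing in the labels ties a pool of one genotype to one of the other, and p-values measure the spread between pools. Same-numbered pools did not deviate together (r from -0.55 to -0.17).

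Members and lists were chosen with earlier results of these data known. Named are all members, the list genes past the threshold, the 5 genes nearest to the members' mean within genotypes and the markers that bear on a member; the further list genes named were chosen after their values were seen. Alternatives concerned the probe set per gene, dim genes, normalization, the floor, the block, the variance model, array weights, Xist and leaving out pools; 2 were chosen after seeing the data, leaving out the 3 pools with Alb above 11 (log2), and leaving out control pool 2 with both arrays of high actin ratio. A protein comparison was not made.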

Additional observations from a re-analysis of the deposited data

Results flagged for a closer look

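Dixon's test for 1 value far from the rest was applied to 34 groups of 5 pools, each probe set of the members and 4 list means in each genotype, and marked 4; chance marks about 1 in 20. Vil1 in control pool 2 had a log2 intensity of 9.96 against 8.22 to 8.65 in the other controls. The mean of the gut genes in the same pool was 7.52 against 4.51 to 4.67. The mean of the liver genes in control pool 4 was 10.22 against 6.38 to 6.85. The mean of the other brush border genes in control pool 3 was 8.34 against 8.18 to 8.22, a gap that is wide only beside the narrow spread of the other 4 controls.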

How the results depend on the processing

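All member differences stayed below 0 in each of the 182 fits of a member under an alternative. The count of members past the threshold did not: over 23 alternatives it was 0 in 13. It was 0 with both arrays of high actin ratio left out (23 genes and 0 probe sets of members passed there), without the Xist-high pools (28 genes, 0 probe sets), with the Xist level as a covariate (13 genes, 0 probe sets), without the Alb-high pools (5 genes, 0 probe sets) and without control pool 2 and both arrays of high actin ratio (6 genes, 0 probe sets); in all 5 fits 0 of the other brush border genes passed. In limma these fits left 6 or 7 members, 8 to 10 of their probe sets and 11 to 17 other brush border genes at an unadjusted p under 0.05. Of all 18193 genes they left 1588 to 3956 there. With the replicate block 1 gene passed, and 0 members, 0 of their probe sets and 0 other brush border genes did. At an unadjusted p under 0.05 in limma were 6, 8 and 13 of these, beside 1986 of all 18193 genes. Of the 5 homozygous pools, 0 were closest to the control of their own number. With the mean of the probe sets of a gene 109 genes and 3 members passed; with the dimmest 60% left out 108 genes, 3 of 6 members, 6 probe sets and 1 other brush border gene. A floor of 32 gave 94 genes and 1 probe set, a floor of 4 gave 5 probe sets, quantile normalization 1 other brush border gene, and array weights 951 genes, 6 probe sets and 6 other brush border genes. Leaving out 1 pool at a time gave 3 to 414 genes, 0 to 5 members, 0 to 6 of their probe sets and 0 to 3 other brush border genes. Fits without pools have fewer samples; for the others the cause was not tested. Signal over background may limit the dim second probe sets of Mme and Mep1a, and likewise the dim Dpp4 probe set that passed. This was not tested.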
